A study of Mus musculus with 4 samples.

Results

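The values below describe 5 related kinase genes, Tnik, Mink1, Map4k4, Dclk1 and Dclk2, of the 22667 genes in the deposited expression table. They were chosen by gene symbol in that table and, for splicing, by the same symbol in the deposited splicing tables, and all their events were kept. The genes were picked as neuronal kinases with regulated exons, with earlier results of these data known, and Tnik and Dclk2 had been tested for ARGLU1-dependent splicing by RT-PCR in the study. Counts of members beside shares of all genes or events are therefore not a contrast of unselected genes. The libraries come from N2a (Neuro-2a) cells, a mouse neuroblastoma line. The siControl cells received non-targeting siRNAs and the siArglu1 cells siRNAs against Arglu1 for 48 h, and each set was then given 4 h of vehicle (EtOH; Veh) or of Dex, the synthetic glucocorticoid dexamethasone, at 100 nM. Each of the 4 groups is 1 library made from pooled RNA of 3 cultures, so a pair of groups has no replicates and cannot be tested on its own. All intervals are 95% intervals for the counting of reads only, and reads without molecular identifiers are not independent molecules. The question that the design addresses is how loss of ARGLU1, a coactivator of the glucocorticoid receptor and a splicing regulator, and Dex alter transcript levels and splicing.

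Tnik, Mink1 and Map4k4 are serine/threonine kinases of the germinal center kinase group. Each has an N-terminal kinase domain and a C-terminal citron homology domain, joined by a long intermediate region in which alternative exons are known. They act on the actin cytoskeleton, on JNK signaling downstream of Rap2, and, in the case of TNIK, on the TCF and beta-catenin complex in Wnt signaling. Dclk1 and Dclk2 join a doublecortin domain, which binds microtubules, to a kinase domain, and are known in migrating neurons and growing axons. Both groups are signaling genes of neurons whose transcripts are alternatively spliced.

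Every library had its largest kinase transcript level at Map4k4 and its smallest at Dclk1, and the exon sequences below show how closely the members are related. Of the 39 cassette exons listed for the 5 genes, 36 matched an exon of GENCODE M21 by its own length and by both flanking intron lengths, and the letters are those of the GENCODE M21 transcripts (GRCm38). Tnik, Mink1 and Map4k4 each have an 87-nt exon in the intermediate region. These are shown because the Tnik exon carried the strongest splicing difference of the 3 genes, and capitals mark the 29 positions at which the 3 exons are not all alike.
Tnik 87-nt exon: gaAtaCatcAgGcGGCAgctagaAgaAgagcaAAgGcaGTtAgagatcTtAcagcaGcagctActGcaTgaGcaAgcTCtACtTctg
Mink1 87-nt exon: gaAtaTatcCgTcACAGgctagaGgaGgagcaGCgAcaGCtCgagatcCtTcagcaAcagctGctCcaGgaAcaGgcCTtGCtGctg
Map4k4 87-nt exon: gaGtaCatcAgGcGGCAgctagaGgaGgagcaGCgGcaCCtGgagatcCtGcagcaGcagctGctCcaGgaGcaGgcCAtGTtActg

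The Tnik and Map4k4 exons had 68 of 87 positions in common (78.2%), the Mink1 and Map4k4 exons 70 (80.5%) and the Tnik and Mink1 exons 61 (70.1%). In the files' build, mm9, the exons lie on the plus strand at chr3:28493829-28493915 (Tnik), chr11:70420133-70420219 (Mink1) and chr1:40056733-40056819 (Map4k4). GENCODE has the exon as coding in 4 of 5 Tnik transcripts that hold it, in 1 of 2 Mink1 transcripts and in 7 of 7 Map4k4 transcripts. A second pair of exons of equal length, 24 nt, was listed for Tnik at chr3:28524121-28524144 and for Mink1 at chr11:70422910-70422933. It is coding in all 4 Tnik and all 3 Mink1 transcripts that hold it. The pair is shown because the Tnik exon also passed the splicing threshold, with capitals at the 6 positions that differ.
Tnik 24-nt exon: agctataagAAagcTatAgATgag
Mink1 24-nt exon: agctataagCGagcAatTgGCgag

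In Dclk2 the exon with the largest difference is the 81-nt exon at mm9 chr3:86597141-86597221, on the minus strand, which is coding in all 3 GENCODE transcripts that hold it. A 13-nt exon lies downstream of it at chr3:86592544-86592556. In 1 GENCODE transcript 11 of its bases are coding and 2 begin the stop codon, and in another, annotated as nonsense-mediated decay, it is untranslated. Both are shown in lower case throughout, as no part of them was singled out.
Dclk2 81-nt exon: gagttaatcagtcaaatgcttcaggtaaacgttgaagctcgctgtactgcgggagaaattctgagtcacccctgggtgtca
Dclk2 13-nt exon: gtccaaggccatg

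The exon of Map4k4 with the largest difference is listed with 225 nt, at mm9 chr1:40060608-40060832 on the plus strand. This form is coding in the 1 GENCODE transcript that holds it. A 3′ splice site 6 nt upstream was used more in all 4 libraries, so the printed form is the minor one.
Map4k4 225-nt exon: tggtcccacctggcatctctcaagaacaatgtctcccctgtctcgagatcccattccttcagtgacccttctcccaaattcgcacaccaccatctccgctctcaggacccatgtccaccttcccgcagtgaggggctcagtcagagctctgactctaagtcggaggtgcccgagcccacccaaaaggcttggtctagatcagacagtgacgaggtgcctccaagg

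The 4 libraries held 66074574 to 86541444 reads on genes. Arglu1, the siRNA target, had 10165 and 11825 reads in the siControl Veh and Dex libraries and 2637 and 3254 in the siArglu1 Veh and Dex libraries. After scaling with the TMM factors of edgeR, which correct for library size and composition, 26.4% (25.2 to 27.5) of the siControl level remained in Veh and 22.5% (21.7 to 23.4) in Dex. Of 10 markers of sympathetic neuroblastoma cells 8 had enough reads to be compared, and their summed level, over all 10, was 522 to 770 cRPKM, a level corrected for mappable transcript length and for library size. Nefl, a neurofilament gene also on that list, was close to 0 with at most 4 reads in a library. The 16 markers of fibroblasts, glia, immune cells and endothelium summed to 3.46 to 4.59 cRPKM, and Col3a1, Lum and Ptprc had 0 or 1 reads in each library. The neuroblastoma marker sum was higher in the siArglu1 libraries (709 and 770 cRPKM) than in the siControl libraries (522 and 600 cRPKM), and its part in the kinase differences was not tested. In these bulk libraries fewer cells of a kind and less RNA per cell cannot be told apart.

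The kinases differed widely in level. Map4k4 was at 77.3 cRPKM (Veh) and 72.7 (Dex) in the siControl libraries and at 59.5 (Veh) and 65.7 (Dex) in the siArglu1 libraries, from 22090 to 31694 reads. Mink1 followed with 15.6, 15.2, 11.3 and 13.9 cRPKM in the same order of libraries. Dclk2 was close to Mink1, at 14.2, 16.8, 10.1 and 12.04 cRPKM. The order of these 2 neighbours was not the same in every library: the ratio of Mink1 to Dclk2 was 1.10 (1.06 to 1.15) in siControl Veh and 0.908 (0.873 to 0.944) in siControl Dex, then 1.12 and 1.15 in the siArglu1 libraries.

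Tnik was lower, at 8.27 and 7.91 cRPKM in siControl Veh and Dex against 2.77 and 3.73 in siArglu1 Veh and Dex. The reads behind these levels were 2379, 2454, 804 and 1406. Both siArglu1 libraries were thus below both siControl libraries. Dclk1 had the lowest level, at 3.28 and 3.11 cRPKM in siControl and 1.36 and 1.42 cRPKM in siArglu1, from 1691, 1727, 704 and 957 reads. Its groups did not overlap either. The levels of Mink1, Map4k4 and Dclk2 were also lower in each siArglu1 library than in both siControl libraries, as was the cRPKM of 41.2% of all genes compared that have one. All other neighbours in the order, apart from Mink1 and Dclk2, kept their places in all 4 libraries by ratios whose intervals did not reach 1. The closest of them were Dclk2 and Tnik in siControl Veh, at a ratio of 1.71 (1.63 to 1.81).

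**Figure D1:**
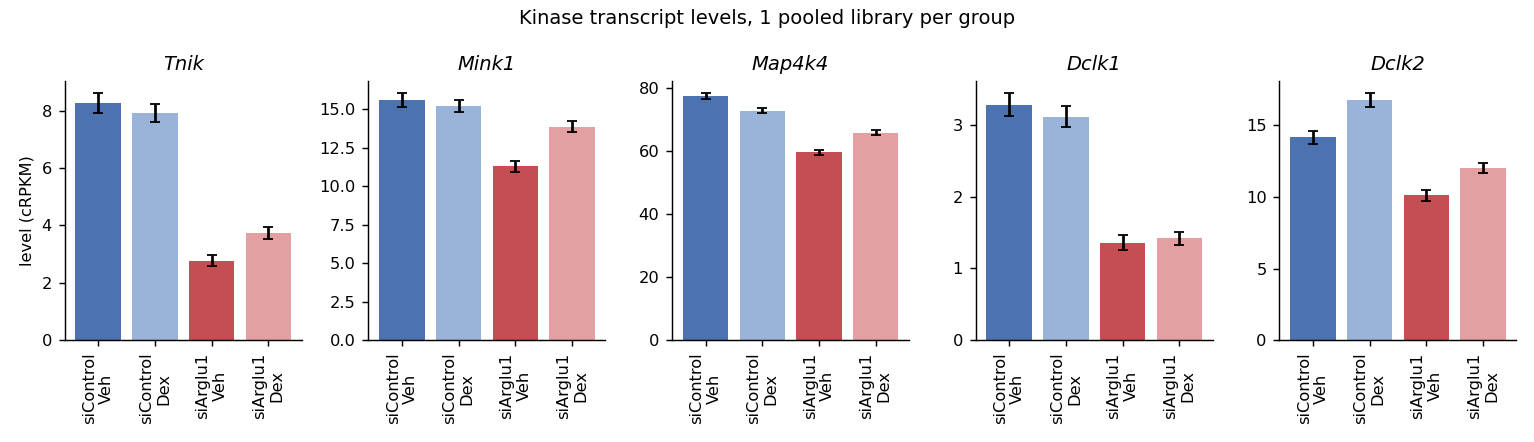
Bars show the level of each kinase transcript in cRPKM (y axis from 0, a scale of its own for each gene) in the 4 libraries, 1 pooled library per group, with 95% counting intervals. Tnik and Dclk1 stand out by siArglu1 bars at 3.73 cRPKM or less and 1.42 cRPKM or less, against at least 7.91 and 3.11 cRPKM in siControl.

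Within the family of Tnik, Mink1 and Map4k4, the summed level of the siControl libraries was 101.1 cRPKM (Veh) and 95.8 (Dex), and that of the siArglu1 libraries 73.6 (Veh) and 83.3 (Dex). Tnik made up 8.18% and 8.26% of the sum in siControl and 3.76% and 4.48% in siArglu1. The share of Mink1 stayed between 15.4% and 16.6%. Map4k4 supplied 75.9% to 80.9% in all libraries. Of the summed Dclk1 and Dclk2 level, Dclk1 was 18.8% and 15.7% in siControl Veh and Dex and 11.9% and 10.5% in siArglu1 Veh and Dex.

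Knockdown of Arglu1 was compared in vehicle and in Dex, pairs that share no library. All 5 kinase transcripts were lower in siArglu1 in both pairs, as were 42.9% of all genes compared, and the size of the difference varied widely among them. In vehicle, Tnik was at 34.3% (31.6 to 37.2) of its siControl level, a log2 ratio of -1.54 (-1.66 to -1.43). Dclk1 was at 42.3% (38.7 to 46.2), a log2 ratio of -1.24 (-1.37 to -1.11). Both were beyond the size of 0.81 (log2) that was used as the threshold for knockdown, so 2 of the 5 kinases passed it, against 15.8% of the 12497 genes compared, those with at least 75 reads over the 4 libraries (8.77% lower). Tnik lay at the 1.62 percentile and Dclk1 at the 3.18 percentile of the log2 ratios of all genes compared. The other 3 did not pass. Dclk2 was at 73.0% (log2 ratio of -0.45), Mink1 at 74.2% (-0.43) and Map4k4 at 78.9% (-0.34), and none of their intervals reached 0.

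In Dex, Tnik was at 46.9% (43.9 to 50.1) of siControl, with a log2 ratio of -1.09 (-1.19 to -0.997). Dclk1 was at 45.4% (41.9 to 49.1), with a log2 ratio of -1.14 (-1.26 to -1.03). These 2 of the 5 kinases were again past the threshold, against 12.1% of all genes compared (5.93% lower). Of all genes, 5.07% were lower past the threshold in both pairs. Dclk2 was at 71.5% (-0.48 on the log2 scale), Map4k4 at 89.98% (-0.15) and Mink1 at 90.6% (-0.14). Dclk2 had thus nearly the same ratio in both pairs. The ratios of Tnik, Mink1 and Map4k4 were nearer to 0 in Dex, each with counting intervals that did not overlap between the pairs. The share of all genes separated in this way was not counted. The groups have no replicates, so a difference in knockdown ratio between vehicle and Dex was not tested.

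Transcript length moved with the knockdown ratio across all genes (Spearman rho of -0.398 in vehicle and -0.229 in Dex, over 12484 genes that share these libraries). All 5 kinases have long transcripts, from 3.99 kb of mappable sequence in Dclk2 (the 73.4 percentile) to 7.79 kb in Dclk1 (the 95.9 percentile). The 661 genes within 0.25 (log2) of the length of Dclk1 had medians of -0.43 (vehicle) and -0.20 (Dex) on the log2 scale. For the 2151 genes near the length of Tnik, 4.36 kb, these medians were -0.18 and -0.07. With the trend on length removed, Tnik was at -1.36 in vehicle and -1.01 in Dex and stayed past 0.81. Dclk1 was at -0.80 in vehicle, just inside the threshold, and at -0.92 in Dex. Map4k4 came to -0.04 and -0.01, Mink1 to -0.19 and -0.02 and Dclk2 to -0.31 and -0.42. How far length itself enters the kinase ratios was not tested.

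**Figure D2:**
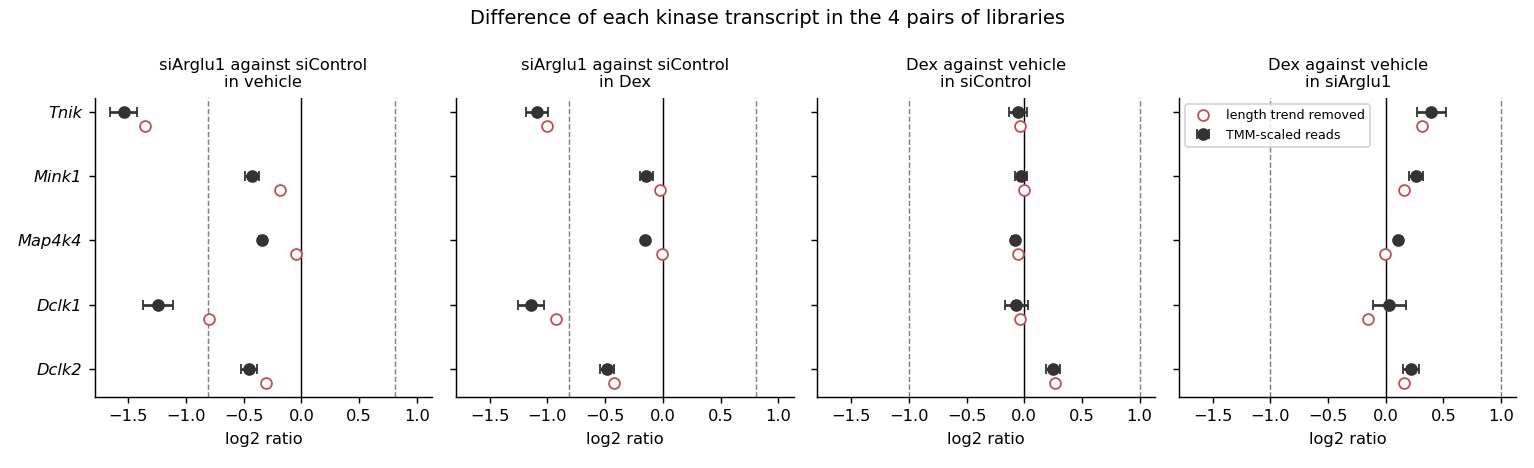
Log2 ratio (x axis) of the 5 kinase transcripts in each of the 4 pairs of libraries, with filled points and 95% counting intervals for TMM-scaled reads, open points for ratios with the length trend removed, and dashed lines at the thresholds of 0.81 for knockdown and 1 for Dex. Only Tnik and Dclk1 lie beyond the dashed lines, both in the knockdown pairs, and the open point of Dclk1 in vehicle is at -0.80.

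The additive edgeR quasi-likelihood model over the 4 libraries, which assumes that knockdown acted alike in vehicle and in Dex, has 1 residual degree of freedom. It called all 5 kinases lower in siArglu1, with a Benjamini-Hochberg adjusted p from 5.9e-39 for Tnik to 0.0105 for Map4k4. It also called 61.6% of all genes. For Dex it called none of the 5 and 1.04% of all genes. With 1 pooled library per group, its p-values do not measure variation between cultures.

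Dex against vehicle left all 5 transcripts inside the threshold of 1 (log2). None of the 5 passed it in siControl, where 0.464% of all genes did, and none in siArglu1, where 0.392% did. In siControl, Dclk2 had the largest ratio, 0.25 (0.19 to 0.31), so Dex was at 119% (114 to 124) of vehicle. Tnik was at -0.05, Mink1 at -0.03, Map4k4 at -0.08 and Dclk1 at -0.07. Of these, only the interval of Map4k4 (-0.10 to -0.06) did not include 0. In siArglu1, Tnik was at 0.40 (0.27 to 0.52), or 132% (121 to 144) of vehicle, Mink1 at 0.26 (0.20 to 0.32), Dclk2 at 0.22 (0.15 to 0.29), Map4k4 at 0.11 (0.09 to 0.13) and Dclk1 at 0.03 (-0.11 to 0.17). In that pair the ratio went up with transcript length across all genes (Spearman rho of 0.543), and with the trend removed Tnik was at 0.32, Mink1 at 0.16, Dclk2 at 0.16, Map4k4 at -0.01 and Dclk1 at -0.15.

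Each kinase was set beside the genes whose 4 levels, as centred log2 values, were nearest to its own among 10701 genes with a mean of at least 1 cRPKM. The distance is Euclidean over 4 libraries. Among the nearest to Tnik were Ppp1r12b, a myosin phosphatase subunit (distance of 0.07), and Tox2 (0.07). Ppp1r12b had log2 ratios of -1.50 and -1.04 in the knockdown pairs. For Dclk1 they were Fam63b (0.03), Slc12a2, a sodium, potassium and chloride cotransporter (0.03), and Sp6 (0.05). Unc13a, Gpatch8 and Elmsan1 were nearest to Mink1, each at 0.02. Ppp6r2, Caskin1 and Mknk2 were nearest to Map4k4 at 0.01 to 0.02, and Ets2, Yae1d1 and Hs6st1 to Dclk2 at 0.04 to 0.07. Among the kinases themselves Mink1 and Map4k4 were the closest pair (0.12), ahead of Dclk2 with Mink1 (0.27) and Tnik with Dclk1 (0.29).

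Relatives and partners of the kinases mostly stayed inside the threshold, as did most genes. Of all genes compared, 15.8% passed it in vehicle and 12.1% in Dex. Of 21 other genes of the MAP4K group and the JNK cascade, such as the kinases Map2k4 and Mapk8 and the scaffolds Mapk8ip1 to Mapk8ip3, 20 could be compared. In vehicle 2 were lower past 0.81 and in Dex none was, with medians of -0.16 and -0.07, against medians of 0.00 over all genes in both pairs. None of them passed in both pairs. Of 18 partners and downstream factors 16 could be compared, and 1 was higher and 1 lower past the threshold in each pair. The higher one was Tcf7, a transcription factor of Wnt signaling, at 1.18 and 0.87 from 68 reads (siControl) and 153 reads (siArglu1) in vehicle. The lower one was Disc1, a scaffold protein known to bind TNIK, with ratios of -1.38 and -1.25 from 399 and 150 reads in the same libraries. Ratios of the list had a median of -0.30 in vehicle and -0.16 in Dex.

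Of 20 genes of the doublecortin family and of microtubules 18 could be compared. In each knockdown pair 2 of them were lower past the threshold, against 8.77% (vehicle) and 5.93% (Dex) of all genes. These were Dcx, doublecortin itself, at -1.62 and -1.15, and Dcdc2a, another gene with doublecortin domains, at -1.74 and -1.59. Both are low in N2a cells, at 0.25 and 0.90 cRPKM in siControl Veh. The medians of the list were -0.01 and 0.06. No gene on the lists of relatives, partners and doublecortin genes passed the threshold of 1 in a Dex pair. Among the neuroblastoma markers 4 were higher and 1 lower past the threshold in each knockdown pair. In either direction, 15.8% (vehicle) and 12.1% (Dex) of all genes passed it. Dbh (2.001 and 2.01), Mycn (1.24 and 1.29) and Gata3 (1.16 and 1.54) were among the higher ones, and Th was the lower one (-1.26 and -0.90). Of the markers of other cell types 7 could be compared. Pecam1 was lower past the threshold in both pairs (-1.07 and -1.08), from 204 reads in siControl Veh, as were 5.07% of all genes. Dcn was higher past it in vehicle (1.16), from 15 reads in siControl Veh, but not in Dex (0.61).

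Splicing was given as PSI, the percentage, among transcripts that span an event, that hold its exon or take a given splice site. The tables list 64 events for the 5 genes, and 57 of them were compared, with a PSI in every library and no more than 1 library scored under LOW for coverage. The scores run from N through VLOW, LOW and OK to SOK. In the tables of alternative splice sites N stands for 0 to 9 junction reads, VLOW for 10 to 19, LOW for 20 to 39, OK for 40 to 99 and SOK for 100 or more. For cassette exons only the score is listed, so no interval is given for their PSI. Of the 57 events 35 are cassette exons, 14 are Alt3 events, where 3′ splice sites compete, and 8 are Alt5 events, the same at the 5′ splice site. In 33 events the PSI was at or above 95 in every library, or at or below 5, and 24 events had an intermediate PSI in at least 1 library.

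In vehicle, 6 of the 57 events differed by at least 15 PSI between siArglu1 and siControl, 4 lower and 2 higher, against 1.96% of 57183 events compared in the series (1.11% lower). Among events with an intermediate PSI, the share in the series was 6.78%. In Dex, 3 events differed by that much, all of them lower in siArglu1, against 1.52% of all events (0.86% lower) and 5.27% of those with an intermediate PSI. These were the 87-nt exon of Tnik, the 225-nt exon of Map4k4 and the 81-nt exon of Dclk2, and each had also been lower by more than 15 PSI in vehicle. In the series 0.54% of all events, and 1.87% of those with an intermediate PSI, were past 15 in both knockdown pairs in the same direction. Dex against vehicle moved none of the 57 events by 15 PSI in siControl or in siArglu1, where 0.719% and 0.948% of all events passed.

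The 87-nt exon of Tnik, printed above, had a PSI of 62.07 (Veh) and 67.57 (Dex) in siControl and of 37.5 (Veh) and 25.33 (Dex) in siArglu1. Both siArglu1 values were below both siControl values, with differences of -24.57 in vehicle and -42.24 in Dex. How many events of the series separate in this way was not counted. In Dex it was 1 of 8 events in the series that were lower in siArglu1 by at least that much, and in vehicle 1 of 142. The scores were OK except in siArglu1 Veh, the library with the fewest Tnik reads, where the score was VLOW. The vehicle difference therefore rests on a thinner value than the Dex difference. Dex against vehicle gave 5.5 in siControl and -12.17 in siArglu1 for this exon.

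The 24-nt exon of Tnik went the other way in vehicle, with a PSI of 38.18 (Veh) and 42.01 (Dex) in siControl and of 56.96 (Veh) and 46.67 (Dex) in siArglu1. It was higher in siArglu1 by 18.78 in vehicle and by 4.66 in Dex. The value of 56.96 has a score of N, the lowest class, so the only difference past 15 in this exon depends on the library with the least coverage of it. The remaining Tnik events compared were included at 95 PSI or more in every library, and 4 of 13 Tnik events did not reach the coverage minimum.

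The 225-nt exon of Map4k4 had PSI values of 69.4 and 66.98 in siControl Veh and Dex and 46.18 and 51.18 in siArglu1 Veh and Dex, all with a score of SOK. The exon is classed as a complex event, one with an increased share of reads from other exon junctions. The knockdown differences were -23.22 in vehicle and -15.8 in Dex, while Dex against vehicle gave -2.42 in siControl and 5 in siArglu1. The 162-nt exon before it, at mm9 chr1:40058275-40058436, had 34.93 and 32.08 in siControl and 24.61 and 22.88 in siArglu1. Its differences of -10.32 and -9.2 were short of the threshold in both pairs. Another exon of Map4k4, of 192 nt, stood at 74.66 to 75.17 PSI in all 4 libraries. These last 2 exons were picked for comparison after their values were seen. The 225-nt exon starts at the less used of its 3′ splice sites, at 10.15 to 12.27 PSI in the 4 libraries. The site 6 nt upstream had 87.73 to 89.85 PSI. The PSI listed for the 225-nt exon can therefore not be read as the share of the printed form alone.

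Dclk2 had 3 exons past the threshold in vehicle, all scored SOK in every library. The 81-nt exon had PSI values of 90.31 and 83.61 in siControl Veh and Dex and 52.04 and 61.37 in siArglu1 Veh and Dex. The difference was -38.27 in vehicle, where 22 events in the series were lower by at least as much, and -22.24 in Dex. Dex and vehicle differed by -6.7 in siControl and 9.33 in siArglu1. Both knockdown differences were larger in size than both Dex differences. The exon was named for passing the threshold, and no compared event of the kinase genes passed it in a Dex pair. The choice therefore favours this order, and no conclusion is drawn from it.

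Farther downstream, an 82-nt exon at mm9 chr3:86593331-86593412 and the 13-nt exon printed above form a pair that the files mark as mutually exclusive. The 82-nt exon had PSI values of 5.25 and 8.83 in siControl Veh and Dex and 22.29 and 23.49 in siArglu1 Veh and Dex. It was higher in siArglu1 by 17.04 in vehicle and by 14.66, just under the threshold, in Dex. The 13-nt exon had 23.18 and 11.64 in siControl and 2.16 and 1.55 in siArglu1, with differences of -21.02 in vehicle and -10.09 in Dex. The values of both exons did not overlap between siArglu1 and siControl, and they went in opposite directions. Both exons were named for a difference past 15 PSI, which favours such a separation. The share of all events separated in this way was not counted. In siControl the 13-nt exon was also lower with Dex (a difference of -11.54), the largest Dex difference in siControl cells among the 57 events compared. GENCODE holds the 82-nt exon in 1 transcript, without a coding region.

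**Figure D3:**
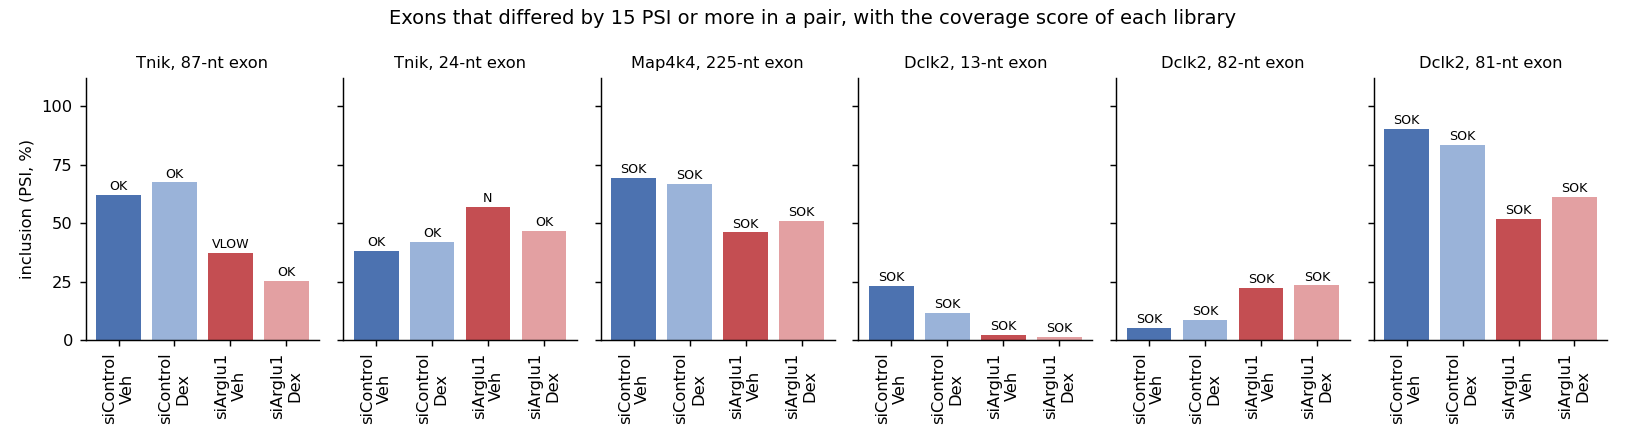
Bars give the PSI in percent (y axis, 0 to 100) of the 6 exons that differed by at least 15 in a pair, in each of the 4 libraries, with the coverage score printed over each bar. In 4 exons both siArglu1 bars are below both siControl bars, and in the 24-nt exon of Tnik and the 82-nt exon of Dclk2 they are above them. The choice by a difference of at least 15 favours such a separation.

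Exon length divides these exons. Those of 87, 24, 225 and 81 nt are multiples of 3 and would keep the reading frame whether included or skipped, while the 82-nt and 13-nt exons of Dclk2 are not. The first 4 are each annotated as coding in at least 1 transcript.

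In Mink1 and Dclk1 no event passed 15 PSI. The largest knockdown difference in Mink1 was in its 24-nt exon, with 65.42 (Veh) and 73.3 (Dex) in siControl and 68.34 (Veh) and 82.19 (Dex) in siArglu1. This is higher in siArglu1 by 2.92 in vehicle and 8.89 in Dex, and higher with Dex by 7.88 in siControl and 13.85 in siArglu1. The Dex libraries thus had the higher inclusion in both siRNA groups, and 13.85 was the largest Dex difference among the compared events of the 5 genes. In the series 1011 events in siControl and 369 in siArglu1 were higher with Dex by at least as much. The share of all events higher with Dex in both siRNA groups was not counted. In Dclk1 the largest difference was in a 74-nt exon at mm9 chr3:55325772-55325845, with 6.67 and 14.71 in siControl and 14.29, scored N, and 11.54 in siArglu1. The knockdown differences were 7.62 in vehicle and -3.17 in Dex. Only 5 events were listed for Dclk1, the least abundant of the kinases, and 4 were compared.

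Exons of equal length in related kinases, chosen for this after their values were seen, were then set side by side. The 87-nt exon was nearly always included in Map4k4 (97.87 and 98.36 PSI in siControl), intermediate in Tnik (62.07 and 67.57) and nearly always skipped in Mink1 (4.63 and 4.52). In siArglu1 it was at 93.39 and 93.93 in Map4k4 and at 1.62 and 1.08 in Mink1. All 3 exons were therefore lower in siArglu1 in both pairs, with differences of -4.48 and -4.43 in Map4k4 and -3.01 and -3.44 in Mink1 beside the larger ones in Tnik. Shifts of this small size were common. In vehicle 4311 of 57183 events were at least as low as the Map4k4 exon and 6267 as the Mink1 exon. The share of all events lower in both pairs was not counted, so a shared response of the 3 exons was not tested. Only Tnik passed the threshold, and a PSI near 0 leaves no room for a fall of 15.

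The 24-nt exons of Tnik and Mink1, alike at 18 of 24 positions (75%), were both higher in siArglu1 in both pairs, but by less than 10 PSI apart from the thinly covered Tnik value in vehicle. The share of all events higher in both pairs was not counted. Map4k4 had no 24-nt exon among its 7 cassette exons. A 79-nt exon shared by Tnik and Map4k4 (79.7% identity) was included at 97.3 PSI or more in all libraries. In the doublecortin-like kinases a 58-nt exon, alike at 36 of 58 positions (62.1%), was at 30.24 to 33.26 PSI in Dclk1 and at 97.24 to 100 PSI in Dclk2. Their knockdown differences ranged from -2.76 to 3.02 PSI, and the siArglu1 Veh value of Dclk1 had a score of N. The Dclk1 exon is classed as a complex event and the Dclk2 exon as a simple one. Their PSI values are therefore not like for like. The 58-nt exons are shown as the only pair of equal length found in the doublecortin-like kinases, with capitals at the 22 positions that differ.
Dclk1 58-nt exon: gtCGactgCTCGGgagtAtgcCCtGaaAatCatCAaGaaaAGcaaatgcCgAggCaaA
Dclk2 58-nt exon: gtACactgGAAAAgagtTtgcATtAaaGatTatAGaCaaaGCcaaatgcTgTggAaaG

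**Figure D4:**
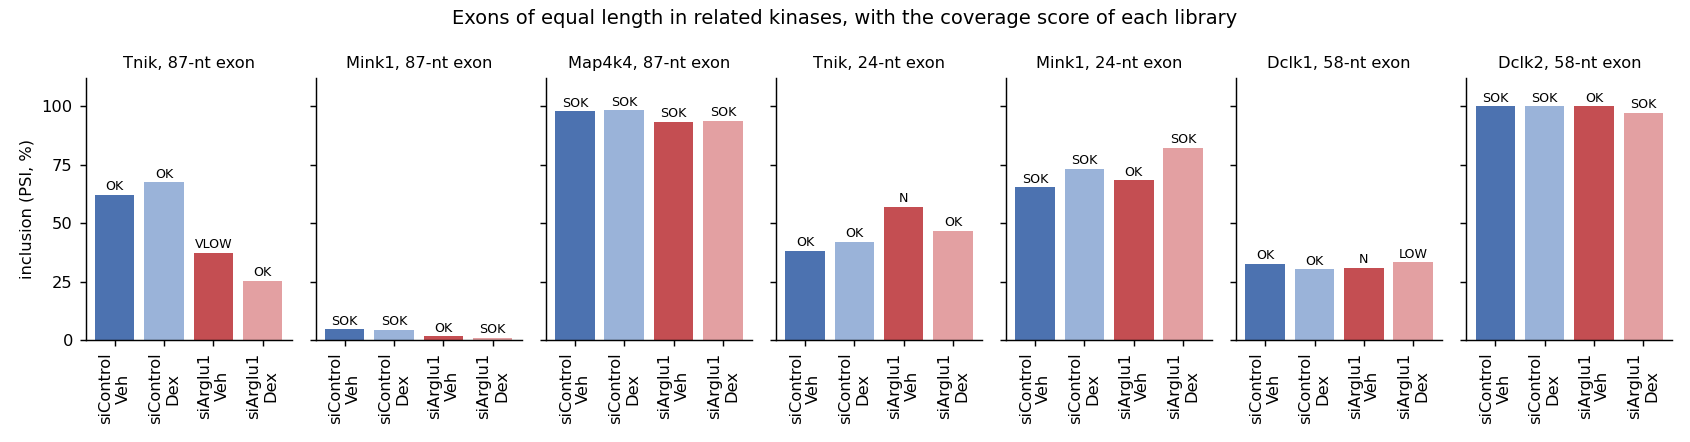
PSI in percent (y axis, 0 to 100) of exons of equal length in related kinases, for the 4 libraries, with the coverage score over each bar. The 87-nt exon ranges from 1.08 in Mink1 to 98.36 in Map4k4, and its siArglu1 bars are lower than its siControl bars in all 3 genes.

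Alternative splice sites of the 5 genes stayed within 10 PSI in the knockdown pairs wherever they were compared. The 93-nt Alt3 of Map4k4 was used at 52.36 to 59.11 PSI, and the 3-nt Alt3 of Dclk2, at mm9 chr3:86620280, at 30.71 to 38.06. Of the 7 events that missed the coverage minimum, 4 were in Tnik and 1 each in Mink1, Dclk1 and Dclk2. Of these 7, 1 alternative 5′ splice site of Dclk2 had a PSI of 8.33 and 46.43 in siControl Veh and Dex, both scored VLOW, and of 17.65 and 20.37 in siArglu1 Veh and Dex. Its knockdown differences were 9.32 in vehicle and -26.06 in Dex, and it was singled out after its values were seen. No event of the 7 passed 15 PSI in both knockdown pairs.

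**Figure D5:**
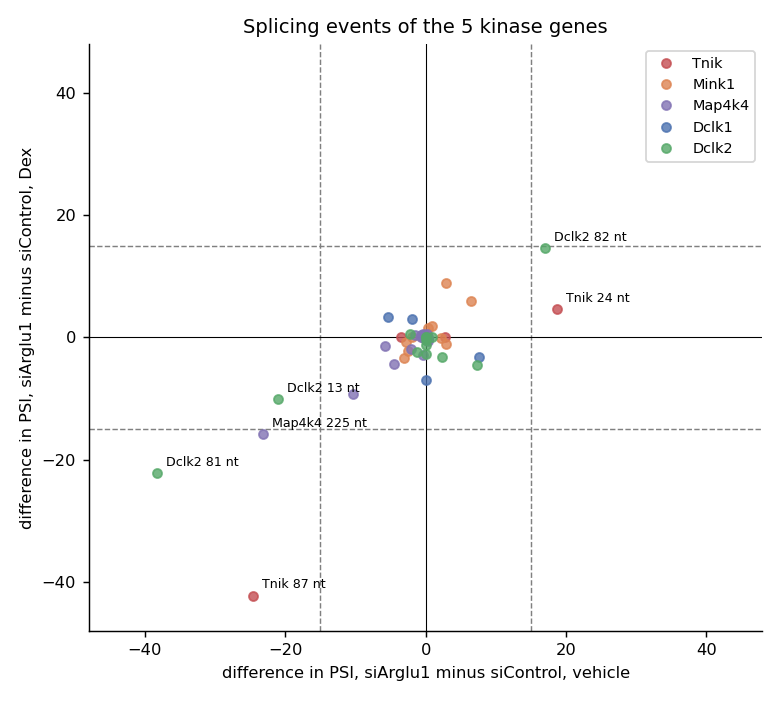
Each point is 1 exon or splice site of the 57 events compared (61 points, since some events have several sites), with the difference in PSI between siArglu1 and siControl in vehicle on the x axis and in Dex on the y axis, coloured by gene. Dashed lines mark 15 PSI. Most points lie near 0, and the 3 exons at the lower left, of Tnik, Map4k4 and Dclk2, are past the lines on both axes.

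The thresholds in level and in splicing picked out different genes. Tnik differed past the thresholds in both readouts, although both of its exons drop out when a score of OK or better is asked of all 4 libraries, which leaves 4 events past 15 PSI in vehicle and 2 in Dex. Dclk1 was past the threshold in level alone, although its splicing was the least covered. Dclk2 and Map4k4 were past it in splicing but not in level, and Mink1 in neither. With 5 genes this is a description of the members.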

How the data were processed

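The authors pooled RNA of 3 N2a cultures per group and sequenced it as 1 polyA-selected library (TruSeq V2). The submitters' processing notes name Bowtie and mm9. The paper names vast-tools for the splicing values. Tool versions and annotation were not given in the sources used here. Deposited were the authors' counts of reads per gene, not normalized, and RPKM corrected for mappability (cRPKM). The authors also deposited PSI, a percent from 0 to 100, for cassette exons, Alt3 and Alt5, with coverage scores. Unnamed columns with ratios of Dex to vehicle, computed by the authors, were not used. Whether reads were counted by strand is not stated, so reads of overlapping antisense genes cannot be told apart.

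Counts were scaled with TMM (edgeR 4.0.16, R 4.3.3), genes with at least 75 reads over the 4 libraries were compared, and log2 ratios of scaled counts were taken with a prior count of 1 and exact 95% counting intervals. The size thresholds were 0.81 (knockdown), 1 (Dex) and 15 PSI. Mappable length was obtained from counts and cRPKM, and the length trend was removed with lowess (span of 0.3). Scripts were tested on simulated data. With 1 library per group no pair of groups was tested. The additive edgeR quasi-likelihood model, an alternative, uses 1 residual degree of freedom and Benjamini-Hochberg adjustment over all genes compared. An event of several sites counts once. Named were each kinase in all libraries, each event past 15 PSI in a pair (or the largest knockdown difference), genes of fixed lists past the threshold in both knockdown pairs (at most 4 per list), and 3 nearest genes by level. Some items under this rule are not reported here. Members and lists were chosen with earlier results of these data known.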

Additional observations from a re-analysis of the deposited data

Results flagged for a closer look

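For Map4k4 the log2 ratio of Dex against vehicle was -0.08 in siControl and 0.11 in siArglu1, opposite signs in the 2 siRNA groups, each of 1 library per arm. The difference between the groups was not tested. After the length trend was taken out they were -0.05 and -0.01.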

How the results depend on the processing

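No paired analysis was possible because each group is 1 library with the same replicate number in every column name, and for the same reason no library could be left out. Of the 60 alternative values for the counts of kinases and events past a threshold, 47 stayed within 1.5 times the reported count. In the knockdown pairs the 2 kinases past 0.81 became 1 in vehicle with the length trend removed (Dclk1 at -0.80), and 1 in vehicle and 0 in Dex at a threshold of 1.5. In the additive edgeR model all 5 kinases were called for knockdown (adjusted p of 5.9e-39 for Tnik, 4.7e-30 for Dclk1, 3.7e-07 for Dclk2, 0.0023 for Mink1 and 0.0105 for Map4k4), as were 61.6% of all genes, and for Dex none was, with 1.04% of all genes called (Dclk2 at 0.351, the others at 0.999). That model assumes no interaction and has 1 residual degree of freedom per gene, with the spread estimated by sharing information over all genes. Each group is 1 pooled library, so these p-values do not measure variation between cultures. With complex or unbalanced events left out, 2 member events passed 15 PSI in vehicle and 1 in Dex. At 25 PSI, 1 event passed in each knockdown pair, and at 10 PSI 5 passed for knockdown in Dex, 1 for Dex in siControl and 3 for Dex in siArglu1. Without the coverage minimum 1 event passed for Dex in siControl and 4 for knockdown in Dex. Asking every library for a score of at least OK, 4 events passed in vehicle and 2 in Dex for knockdown, and those lost were the Tnik exons. Of the 100 alternative values for single kinase ratios 17 moved by more than their counting interval and none changed sign past a threshold. Removing the length trend accounted for 13 of the 17, and the others were Map4k4 ratios with unscaled totals or cRPKM. Depth limits the Tnik and Dclk1 events most, in siArglu1 Veh above all.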
